A study of Mus musculus with 42 samples.

Results

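Stromal cells labelled VmSC4, from the visceral adipose tissue (VAT) of mice, were compared before and after 8 days of adipogenic culture. The groups were defined by the sample labels alone: 3 libraries of freshly sorted VmSC4 cells against 3 libraries of cultured VmSC4 cells, 6 of the 42 libraries in the series. The comparison itself was chosen with earlier results of these data known. All 6 carry the genotype label Pparg-Tdt. The fresh libraries have no treatment in their labels, and the cultured ones are labelled as adipogenic differentiation. Each fresh library came from 1000 cells sorted into lysis buffer in 2 rounds, whereas the cultures were lysed in their wells in 20 microlitres, of which 5 were submitted. The labels do not give the sorting gates that define VmSC4, the culture medium, or the age or sex of the mice, nor do they say if the replicates came from different animals or wells. The tests therefore measure the spread between these libraries, which may be technical. Cell isolation, culture, input and depth all differ between the groups, and their parts in any difference cannot be told apart. The 3 fresh and 3 cultured libraries of a related population, VmSC5, with the same tissue, genotype and treatment labels, entered the same fit. They serve below only to show where VmSC4 differed.

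Adipogenesis is the conversion of a fibroblast-like stromal cell into a fat-storing adipocyte. The early factors C/EBPβ and C/EBPδ induce PPARγ and C/EBPα, which keep each other on and switch on the genes for taking up, making, coating and breaking down triglyceride. At the same time the cell remodels its matrix, builds mitochondria and gains receptors for insulin and for hormones that release fat. Stromal cells of adipose tissue have been described to include less committed progenitors marked by DPP4 and PI16 and committed preadipocytes marked by ICAM1. Other stromal cells, marked by F3, have been reported to restrain adipogenesis.

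The fresh libraries held 12514783, 11186713 and 11681295 counts and the cultured ones 1841664, 2606360 and 2147219, so low genes were measured less precisely in culture. Of 55011 genes in the table, 13221 passed the low-count filter and were tested. After thinning every library to 1841664 counts, 17220 to 17385 genes had a count in the fresh libraries and 14839 to 14966 in the cultured ones. Levels are given in CPM, a gene's count scaled by its library's total, for replicates 1, 2 and 3 in turn. Log2 fold changes (± SE) compare culture with fresh cells after trimmed-mean (TMM) scaling, which sets them about 0.54 above the log2 ratio of CPM. Higher, lower, rose and fell are written of genes that passed an adjusted p of 0.05 in edgeR's quasi-likelihood test (Benjamini-Hochberg), and such genes are said to be called. In bulk RNA, a change in the number of cells that express a gene and a change in RNA per cell cannot be told apart.

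The culture response was broad. Of the 13221 genes tested 70.4% were called, 4212 (31.9%) higher and 5095 (38.5%) lower in culture. More than 2-fold changes were called for 3073 higher (23.2%) and 3956 lower (29.9%). The groups did not overlap for 10416 genes (78.8%), so a gene group is described below against these shares. With libraries scaled by their totals alone, the split of calls moved from 45.3% higher and 54.7% lower to 30.0% and 70.0%, with the median over all genes shifted by −0.54. The directions of genes called below held under that scaling, and counts of gene groups that it moved by more than 1 member and over 1.5 times are given beside them. More than 32-fold changes were called for 378 genes higher and 472 lower.

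**Figure D1:**
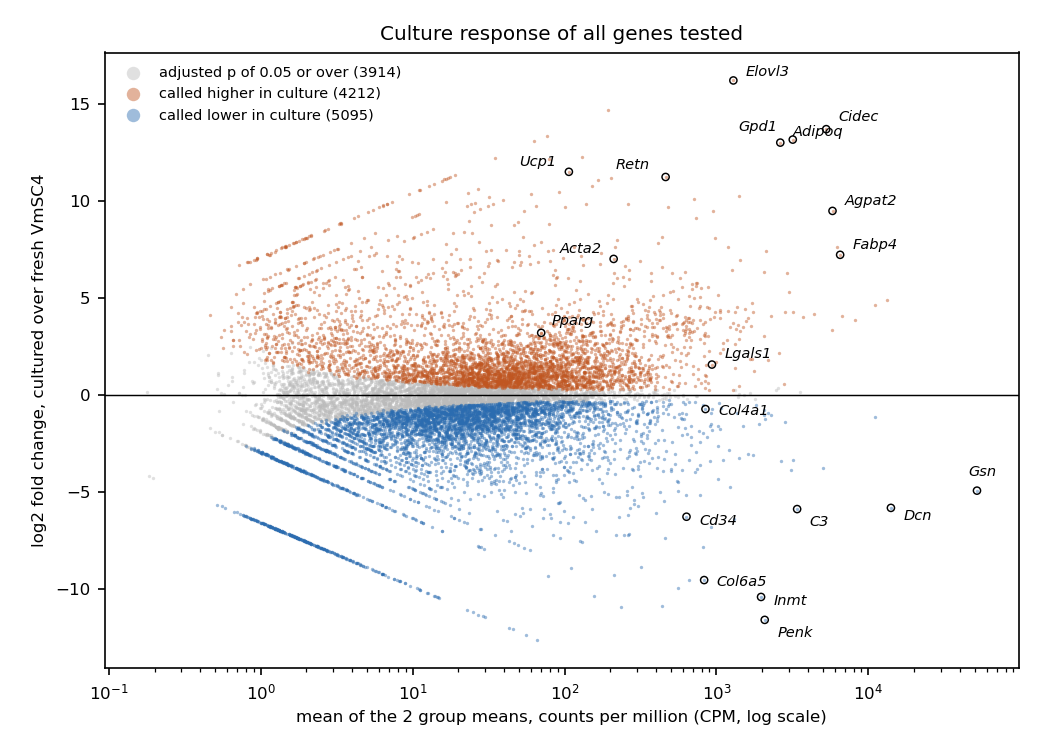
Each point is 1 of 13221 genes, by mean level (x, CPM, log scale) and log2 fold change of cultured over fresh VmSC4 (y); orange genes were called higher, blue lower and grey neither. The slanting rows of points at low levels are genes with no or few counts in 1 group. Fitted values of single genes resting on 3 or fewer counts in a VmSC4 group are not used in the text.

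The largest rises included several enzymes of lipid metabolism. Elovl3, which elongates fatty acids, had 1 count over the 3 fresh libraries and 2563, 2720 and 2470 CPM in culture. That ratio is 91809, with a counting interval of 16476 to 3.6265e+06. Sptlc3, a subunit of the enzyme that starts sphingolipid synthesis, had 0 counts in fresh cells and 357, 387 and 408 CPM in culture, at least 4544-fold higher against a floor of 3 counts over the group. On the same floor Ubd, which encodes the ubiquitin-like protein FAT10, was at least 1819-fold higher, Ffar2, a receptor for short-chain fatty acids, at least 1509-fold, and Aldh3b2, an aldehyde dehydrogenase, at least 817-fold. The esterase gene Aadac had 2 counts in fresh cells and 256, 271 and 251 CPM in culture.

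The largest falls took abundant transcripts of the fresh cells to the limit of detection. Penk, the precursor of the enkephalin peptides, stood at 4406, 4437 and 3626 CPM in fresh cells and at 1.09, 0.767 and 0.931 in culture, a log2 fold change of −11.59 ± 0.24. Clic6, Hpca, Lrrn1, Heyl, Dchs2, Slc38a5 and Gatm had 0 counts in all 3 cultures. They were at least 290-, 251-, 202-, 190-, 131-, 129- and 120-fold lower there, in that order. Hpca encodes the calcium sensor hippocalcin and Heyl a Notch target.

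The marker genes moved in the direction that the labels name. Their lists were chosen with earlier results of these data known, so this is no independent check of the labels. All 13 adipose stromal markers were lower in culture, and their summed level went from 152690 to 158950 CPM in fresh cells to 5202 to 5822 CPM. All 11 adipocyte markers were higher, from 1614 to 1837 CPM summed to 45196 to 48188 CPM. Gsn, which encodes the actin-severing protein gelsolin, alone made up 105376, 98385 and 100644 CPM of the fresh libraries and 2212, 2473 and 2180 CPM of the cultures (−4.93 ± 0.13). Cd34, a surface marker of stromal progenitors, went from 1332, 1242 and 1203 CPM to 9.23, 12.7 and 11.2 CPM (−6.27 ± 0.21). Pdgfra, the PDGF receptor that marks these cells, fell less, from 541, 595 and 598 CPM to 33.1, 25.3 and 27.9 CPM (−3.80 ± 0.13). In each of these genes every fresh library was above every cultured one.

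**Figure D2:**
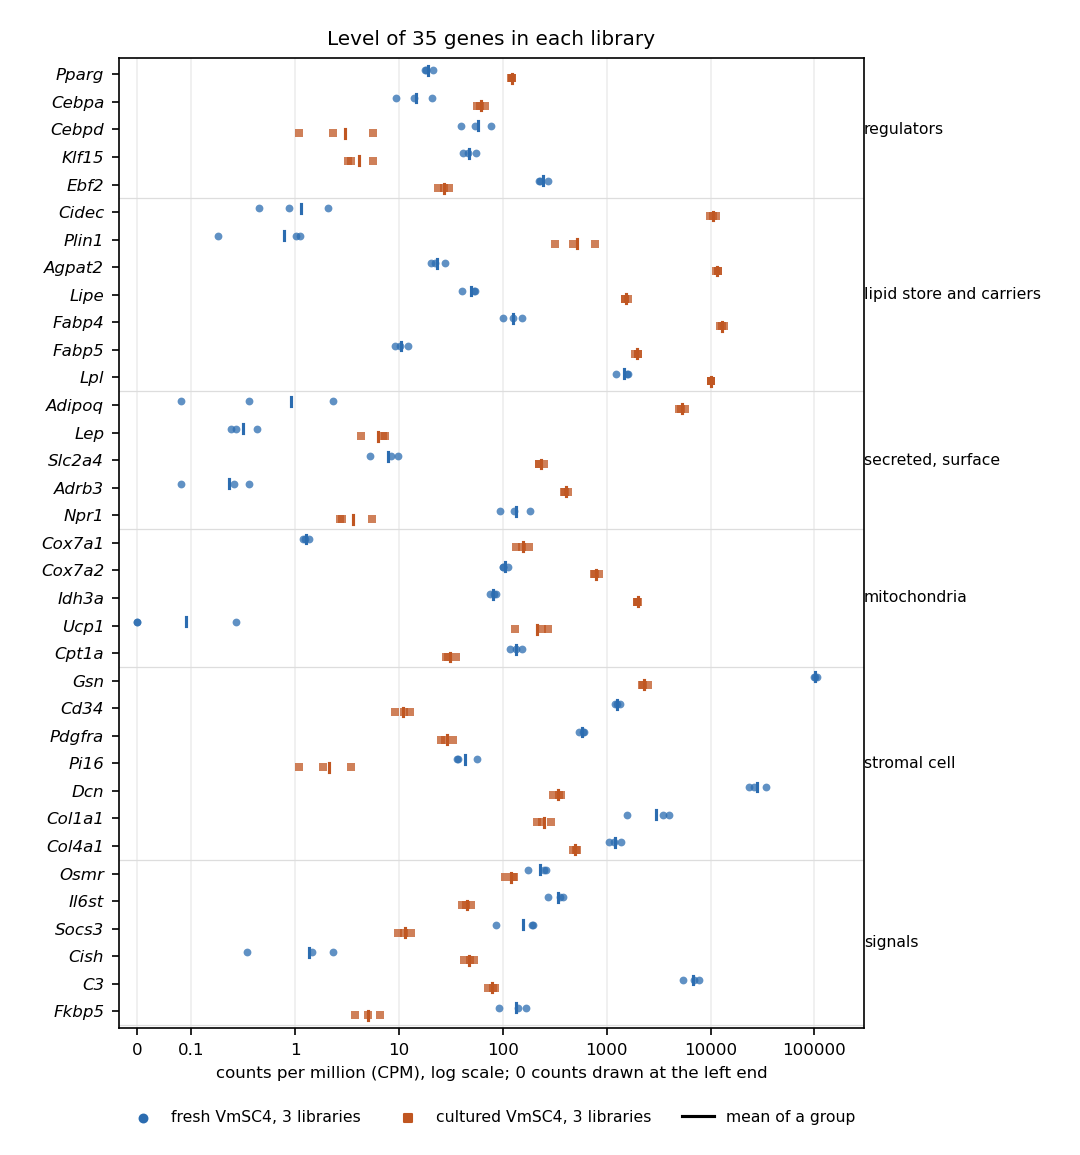
Level of 35 genes (CPM, log scale, 0 counts at the left end) in the 3 fresh (blue circles) and 3 cultured (orange squares) VmSC4 libraries, with bars at the group means. The groups overlap for none of them, and Pparg rises from about 19 CPM to 121 CPM while Adipoq rises from at most 2.31 CPM to at least 4921 CPM.

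The regulators of adipogenesis did not move together. Pparg, the receptor that drives the program, was at 18.1, 17.8 and 21.4 CPM in fresh cells and 122, 120 and 122 CPM in culture (3.20 ± 0.19, adjusted p = 1.2e-12). Cebpa, its partner, went from 9.27, 20.7 and 13.8 CPM to 67.9, 60.6 and 56.8 CPM (2.63 ± 0.24). Every culture was above every fresh library for both. Of the 14 late adipogenic factors 10 rose, among them Ppargc1b, a coactivator of mitochondrial genes (6.24 ± 0.38), and Mlxipl, which encodes the glucose-responsive factor ChREBP (3.70 ± 0.29). The 3 late factors that fell were Ebf2, Klf15 and Prdm16, and the call of Prdm16 was lost without fresh replicate 3 or cultured replicate 1 or 2. Klf15, a glucocorticoid-induced activator of adipogenesis, dropped from 55.1, 46.4 and 41.5 CPM to 3.26, 3.45 and 5.59 CPM (−2.99 ± 0.29). Ebf2, known from brown fat precursors, dropped from 274, 226 and 225 CPM to 27.1, 23.8 and 30.3 CPM (−2.62 ± 0.16).

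The early factors were divided. Of 11 tested, 2 rose, 4 fell and 5 were not called, with a median of −0.13, and with libraries scaled by their totals alone none rose and 5 fell. Cebpd went from 39.6, 54.2 and 77.1 CPM to 1.09, 2.30 and 5.59 CPM (−3.69 ± 0.35). Klf4 went from 103, 112 and 158 CPM to 5.43, 4.22 and 6.99 CPM (−3.96 ± 0.26). Cebpb was low in both groups, at 1.04 to 2.57 CPM in fresh cells and 0 to 4.19 CPM in culture, and was not called, although leaving out cultured replicate 1 gave an adjusted p of 0.0471. Genes that hold adipogenesis back also fell in the main: of 20 anti-adipogenic regulators 13 were lower and 2 higher, with a median log2 fold change of −1.72 against −0.235 over all genes. Dlk1, which encodes the preadipocyte inhibitor also known as Pref-1, had 18 counts over the fresh libraries and 0 over the cultures and did not pass the filter.

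Genes that build and coat the lipid droplet were among the strongest responders. Of 13 droplet genes 11 were higher and 2 lower, and of 14 triglyceride synthesis genes 12 were higher and 1 lower. Cidec, which fuses droplets, went from 0.879, 0.447 and 2.05 CPM to 10512, 11253 and 9910 CPM (13.70 ± 0.58). Gpd1, which supplies the glycerol backbone, went from 1.52, 0.536 and 0.856 CPM to 6037, 6846 and 6190 CPM (13.17 ± 0.41). Agpat2, which adds the next acyl chain, went from 22.4, 20.1 and 27.7 CPM to 11782, 11795 and 11195 CPM (9.49 ± 0.17, adjusted p = 4.3e-24). Plin1, the droplet's gatekeeper, was the most variable of these in culture, at 319, 477 and 768 CPM, against 0.179 to 1.12 CPM in fresh cells (9.87 ± 0.76). Hsd17b11, also a droplet protein, was 1 of the 2 that fell, from 6.07, 8.49 and 5.99 CPM to 2.17, 0.767 and 2.33 CPM (−1.47 ± 0.51), a call that was lost without cultured replicate 2 (adjusted p = 0.0993).

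Genes that make and release fatty acids rose with them. All 11 lipolysis genes were higher, with a median log2 fold change of 5.63, and 15 of 16 genes of fatty acid synthesis and its NADPH supply were higher, with a median of 3.82. Pnpla2, the first triglyceride lipase, went from 46.7, 27.9 and 31.9 CPM to 4113, 4381 and 4022 CPM (7.41 ± 0.19), and Lipe, which takes the next step, from 53.1, 53.4 and 40.1 CPM to 1592, 1500 and 1504 CPM (5.51 ± 0.14). Fasn, the fatty acid synthase, rose from 177, 166 and 133 CPM to 2389, 2843 and 2475 CPM (4.56 ± 0.14). Scd1, the stearoyl-CoA desaturase, reached 12696, 11267 and 12912 CPM from 135, 73.0 and 65.5 CPM (7.61 ± 0.26).

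Of 15 uptake and carrier genes 12 were higher and 1 lower. Fabp4, the main adipocyte carrier of fatty acids, went from 99.2, 151 and 126 CPM to 13451, 12950 and 12335 CPM (7.23 ± 0.16). Fabp5, a related carrier, went from 12.1, 10.2 and 9.16 CPM to 1978, 2003 and 1878 CPM (8.08 ± 0.15). Per kilobase of all annotated exons joined (4489 and 3567 bases), Fabp4 stood at 2876 RPKM in culture and Fabp5 at 547 RPKM. Lpl, which frees fatty acids from lipoproteins, was already high in fresh cells, at 1223, 1555 and 1604 CPM, and reached 10047, 10185 and 10188 CPM (3.34 ± 0.12). Cd36, which takes up fatty acids, went from 106, 151 and 69.2 CPM to 5088, 6161 and 6007 CPM (6.27 ± 0.37). Of 7 genes of caveolae, the membrane pits that fill the adipocyte surface, 6 were higher, led by Cav2 (4.35 ± 0.23) and Cav1 (3.61 ± 0.13).

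Hormones secreted by adipocytes rose unequally. Of 14 adipokine genes 10 were higher, 1 was lower and 3 did not pass. Adipoq, which encodes adiponectin, had 1, 4 and 27 counts in the fresh libraries (0.0799, 0.358 and 2.31 CPM) and 5201, 5668 and 4921 CPM in culture (13.01 ± 0.52). Retn, the gene for resistin, went from 0.719, 0.447 and 0.428 CPM to 939, 1052 and 783 CPM (11.24 ± 0.27). Lep, the gene for leptin, stayed low, at 0.240, 0.268 and 0.428 CPM in fresh cells and 4.34, 7.29 and 6.99 CPM in culture (4.78 ± 0.62). Agt, which encodes angiotensinogen, was the member that fell, from 1280, 1068 and 976 CPM to 245, 288 and 229 CPM (−1.58 ± 0.13).

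Receptors that release or retain fat changed with them. Of 13 adipocyte surface receptors 11 were higher and 1 lower, with a median of 5.38. Adrb3, the β3-adrenergic receptor, went from 0.0799, 0.358 and 0.257 CPM to 424, 397 and 387 CPM (11.21 ± 0.25). Npr1, the receptor for atrial natriuretic peptide, fell from 183, 93.7 and 127 CPM to 5.43, 2.69 and 2.79 CPM (−4.72 ± 0.31). The insulin pathway moved in both directions. Slc2a4, the insulin-responsive glucose transporter GLUT4, went from 9.67, 8.40 and 5.22 CPM to 220, 224 and 249 CPM (5.43 ± 0.40), and Insr, the insulin receptor, from 59.8, 56.5 and 58.5 CPM to 76.6, 77.5 and 83.4 CPM (0.98 ± 0.14). Irs1, an adaptor between them, fell from 58.9, 69.5 and 60.1 CPM to 17.9, 13.8 and 19.1 CPM (−1.36 ± 0.27). Over the 18 genes of the pathway, 9 were higher and 4 lower, which became 7 and 9 with libraries scaled by their totals alone.

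The mitochondrial genes rose as a block. All 36 tested subunits of complex I, 4 of complex II, 10 of complex III with cytochrome c, 15 of complex IV and 15 of complex V were called higher, with medians of 2.74, 3.03, 3.87, 3.53 and 2.90. So were all 21 genes of pyruvate entry and the citrate cycle (median 3.79), all 15 peroxisomal enzymes (3.49) and 75 of 77 mitochondrial ribosomal proteins (1.89). The 89 tested genes of the cytosolic ribosomal protein list went another way, with 11 higher, 34 lower and a median of −0.14. That list was filled by gene symbol and also holds genes of other proteins. Among them are the kinase genes Rps6ka3, which was higher, and Rps6kc1, which was lower. With libraries scaled by their totals alone, 1 subunit of complex V and 1 gene of the citrate cycle no longer passed. Under that scaling 4 genes of the cytosolic list were higher and 67 lower. Idh3a, a subunit of the citrate cycle's NAD-dependent isocitrate dehydrogenase, was at 82.0, 85.0 and 75.2 CPM in fresh cells and 2020, 1954 and 1971 CPM in culture (5.16 ± 0.13, adjusted p = 5.4e-22).

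Transcripts of the mitochondrial genome rose as well. Their share of all counts was 0.304% to 0.423% in fresh libraries and 6.05% to 6.81% in cultured ones, and all 11 tested protein genes were higher (median 4.64). The level of mt-Co1, a core subunit of complex IV, went from 961, 1357 and 1338 CPM to 23553, 18382 and 20969 CPM (4.64 ± 0.33). These levels are uncertain, since the nuclear genome holds near copies of the mitochondrial one and the handling of shared reads is not given. Leaving these transcripts out of the fit gave 4216 genes higher and 5088 lower.

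Some pairs of interchangeable subunits were unequal. Cox7a1, the form of heart, muscle and fat, went from 1.36, 1.25 and 1.2 CPM to 180, 134 and 151 CPM (7.44 ± 0.20), and Cox7a2, the general form, from 99.8, 112 and 101 CPM to 839, 757 and 768 CPM (3.46 ± 0.12). Per kilobase, Cox7a2 was still the more abundant in culture, at 835 RPKM against 290 RPKM. Cox8b and Cox8a differed likewise, with log2 fold changes of 6.93 ± 0.30 and 3.20 ± 0.13. The forms that admit fatty acids to mitochondria moved in opposite directions. Cpt1a fell from 152, 117 and 133 CPM to 28.2, 35.3 and 29.8 CPM (−1.56 ± 0.15) and Cpt1b rose from 0.171 to 0.268 CPM to 14.7, 20.0 and 24.2 CPM (6.86 ± 0.44). Cpt1a was the only 1 of 20 genes of mitochondrial fatty acid oxidation that was lower, and the other 19 were higher.

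**Figure D3:**
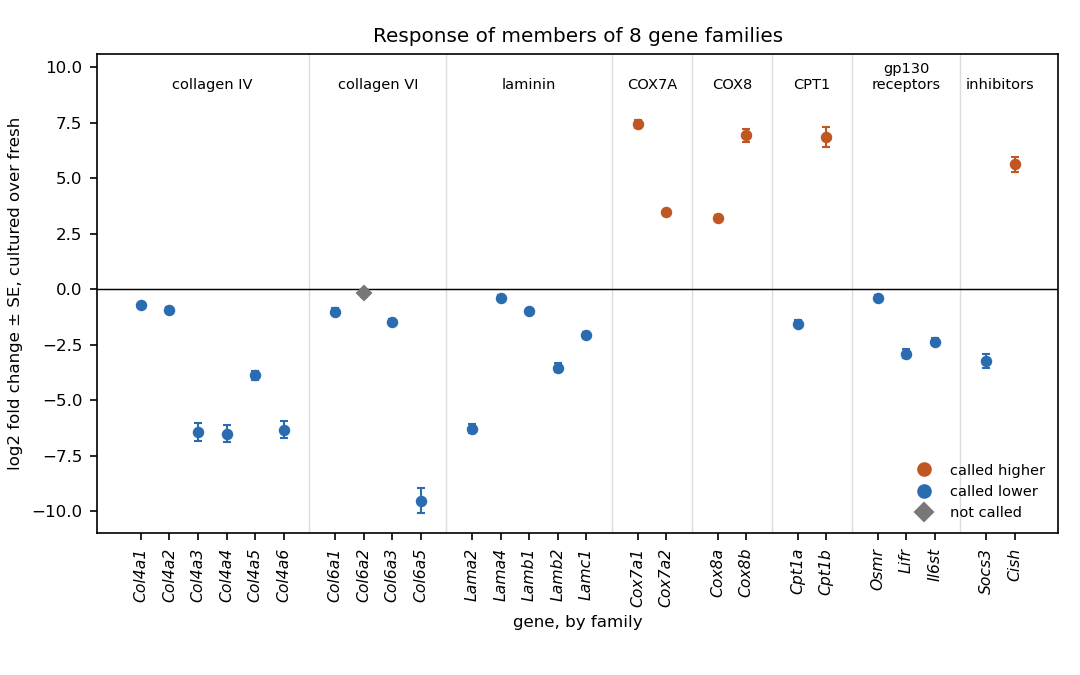
Log2 fold change (± SE) of cultured over fresh VmSC4 for members of 8 gene families; orange was called higher, blue lower, and the grey diamond (Col6a2) not called. Within the collagen IV, collagen VI and laminin families the members spread over more than 5 log2 units, and Cpt1a and Cpt1b lie on either side of 0.

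The promoters of the respiratory chain genes were searched for GCGC followed by A, any base and a second GCGC. This is a core bound by NRF1, a known activator of nuclear genes for mitochondria. In the 250 bases before the annotated start (RefSeq, GRCm38.p6, both strands), the motif was in 13 of 66 respiratory chain genes with a promoter in the table (19.7%), of 80 listed. It was in 10 of 69 mitochondrial ribosomal protein genes (14.5%), 1 of 19 citrate cycle genes (5.26%), 4 of 70 adipocyte lipid genes (5.71%) and 1 of 60 matrix genes (1.67%), against 1144 of all 27025 genes (4.23%). These are counts of letters and not of bound sites. The 27025 genes include ones not tested here and were not matched for base composition. The part of NRF1 in the rise was not tested. NRF1 was not the only motif searched. A C/EBP motif was in 1 of 66 respiratory chain genes (1.52%) and 1 of 70 adipocyte lipid genes (1.43%), against 0.762% of all genes. A repeat spaced by 1 base (DR1) was in 0 of 66 and 0 of 70, against 0.0407%. That exact repeat was in only 11 of all 27025 genes. The C/EBP and DR1 motifs were thus too rare for sets of this size to show a difference. Of 2 general promoter boxes, 1 was in 42.4% of respiratory chain genes against 37.5% of all genes. The other was in 7.58% against 14.3%. Nrf1 itself was lower in culture, at 57.9, 42.2 and 40 CPM in fresh cells and 19.5, 19.2 and 16.8 CPM in cultures (−0.79 ± 0.20), 1 of 2 genes that fell among 22 of mitochondrial biogenesis and import, of which 18 rose. Stretches of 120 bases with the motif in capitals are shown for 4 genes of complexes I, IV and V, all on the minus strand, which no RefSeq gene overlaps. They end just before the start of Ndufa8 and Atp5g2 and farther upstream for the other genes, and the motif begins 30, 98, 162 and 42 bases before the start of Ndufa8, Ndufs5, Cox6a1 (the first of 2 copies) and Atp5g2.
Ndufa8 (complex I, chr2:36049339-36049458): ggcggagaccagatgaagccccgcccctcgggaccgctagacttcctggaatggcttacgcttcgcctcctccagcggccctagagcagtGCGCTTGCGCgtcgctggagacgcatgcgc
Ndufs5 (complex I, chr4:123718220-123718339): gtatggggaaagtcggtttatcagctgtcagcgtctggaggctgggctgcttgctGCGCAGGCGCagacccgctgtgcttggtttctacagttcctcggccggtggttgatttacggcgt
Cox6a1 (complex IV, chr5:115349056-115349175): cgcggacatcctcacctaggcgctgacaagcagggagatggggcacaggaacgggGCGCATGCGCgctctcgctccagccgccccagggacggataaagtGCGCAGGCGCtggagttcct
Atp5g2 (complex V, chr15:102671048-102671167): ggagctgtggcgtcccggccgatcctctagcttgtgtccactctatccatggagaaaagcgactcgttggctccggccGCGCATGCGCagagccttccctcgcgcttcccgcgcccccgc

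The 4 genes with these promoters did not rise alike. Ndufa8 went from 72.2, 74.8 and 67.3 CPM to 527, 546 and 526 CPM (3.44 ± 0.12) and Cox6a1 from 146, 167 and 139 CPM to 1096, 1124 and 1094 CPM (3.41 ± 0.14). Ndufs5 was close behind, from 19.3, 22.1 and 16.8 CPM to 116, 107 and 110 CPM (3.06 ± 0.16). Atp5g2, a gene for the membrane ring of ATP synthase, moved least, from 10.3, 13.4 and 7.96 CPM to 11.9, 16.9 and 14 CPM, groups that overlap (0.99 ± 0.26), and with libraries scaled by their totals alone it was not called (0.45).

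Genes known from thermogenic fat were also induced. Of 15 tested, 10 were higher and 4 lower. Ucp1, the uncoupling protein of brown fat, had 3 counts in 1 fresh library and 0 in the others and stood at 271, 130 and 239 CPM in culture. That ratio is 2418, with a counting interval of 826 to 11739. Gatm, at 0 counts in culture, and Ckb, which serve a creatine cycle described in such fat, were lower, Ckb from 231, 156 and 166 CPM to 81.4, 69.1 and 76.4 CPM (−0.75 ± 0.16).

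Glucose use and sterol synthesis moved in parallel. Of 20 genes of glycolysis and lactate transport 19 were higher (median 3.97), among them Ldha, which makes lactate (363, 446 and 369 CPM to 5891, 4521 and 5468 CPM, 4.29 ± 0.15). Of 21 genes of branched-chain amino acid breakdown, a carbon source for fat in adipocytes, 18 were higher. Acadsb, which handles the isoleucine branch, was the member that fell, from 154, 132 and 156 CPM to 23.9, 27.2 and 29.8 CPM (−1.90 ± 0.17). Of 24 genes of cholesterol synthesis and transport 18 were higher and 3 lower, or 15 and 5 with libraries scaled by their totals alone. Dhcr7, which makes cholesterol in the last step, rose from 18.7, 17.4 and 20.4 CPM to 330, 438 and 427 CPM (4.94 ± 0.18), whereas Srebf2, the factor that drives the pathway, fell from 136, 129 and 158 CPM to 30.4, 33.0 and 34.5 CPM (−1.57 ± 0.14).

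Genes of the DPP4+ and F3+ stromal subsets were mostly lower, and committed preadipocyte genes were divided. Of 22 DPP4+ progenitor genes 15 were lower and 4 higher, of 14 committed preadipocyte genes 8 were lower and 5 higher, and of 12 genes of the F3+ regulatory subset 10 were lower and none higher. The 5 higher committed preadipocyte genes were Fabp4, Cd36, Lpl, Pparg and Sdc1. The summed level of that list went from 7939.8 to 8692.5 CPM in fresh cells to 30037 to 30950 CPM in culture. With libraries scaled by their totals alone, 2 DPP4+ progenitor genes were higher, and likewise 2 without cultured replicate 3. Pi16, a progenitor marker, went from 55.9, 35.8 and 36.6 CPM to 1.09, 3.45 and 1.86 CPM (−3.69 ± 0.43). Dpp4 itself was barely present in fresh VmSC4, at 1.76, 1.70 and 2.83 CPM, and at 0.543, 1.15 and 1.40 CPM in culture it was not called. Icam1, the marker of committed cells, went from 54.1, 64.0 and 69.9 CPM to 22.3, 21.5 and 22.8 CPM (−0.96 ± 0.19). Inmt, a methyltransferase gene, fell from 4325, 4367 and 3100 CPM to 1.09, 1.92 and 2.79 CPM (−10.41 ± 0.23). Gdf10, a TGF-β family ligand of the F3+ cells, fell from 2009, 1702 and 1766 CPM to 14.1, 13.4 and 6.52 CPM (−6.78 ± 0.19). F3 itself, the coagulation initiator that names that subset, was at 334, 490 and 431 CPM in fresh cells and 300, 335 and 271 CPM in culture and was not called (0.07 ± 0.16), and with libraries scaled by their totals alone it was lower (−0.47).

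**Figure D4:**
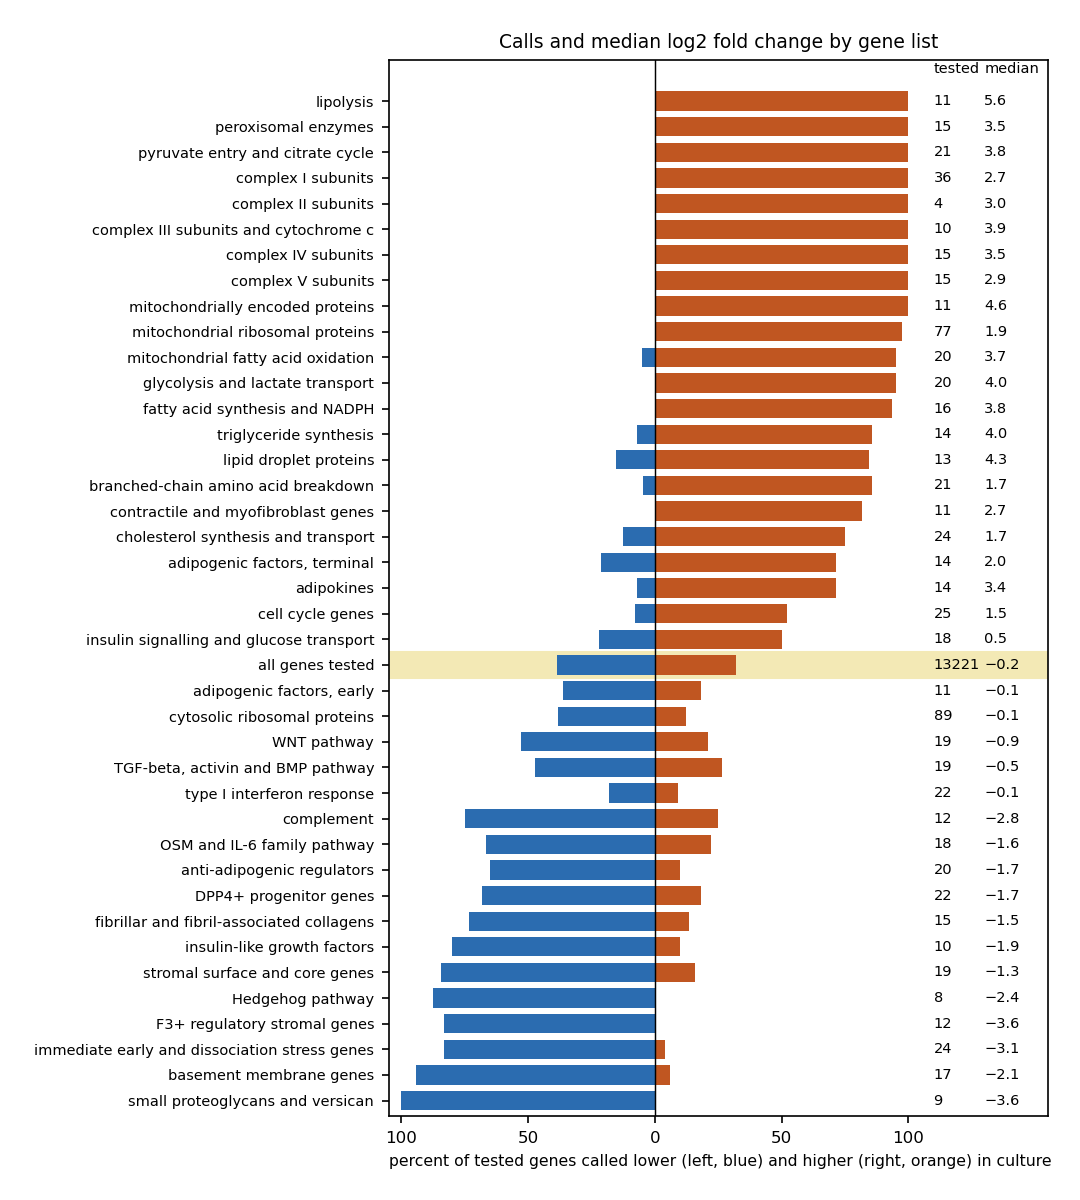
Share of tested genes called lower (blue, left) and higher (orange, right) in culture for 39 gene lists and for all genes tested (yellow band), with the number tested and the median log2 fold change. The vertical order was set by hand and is not a result. Lists of fat, mitochondria and glycolysis have medians above that of all genes. Lists of matrix, DPP4+ and F3+ stromal subsets and early response genes have medians below it. The committed preadipocyte list is not drawn.

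Matrix genes fell as groups, but not evenly within them. Of 15 fibrillar and fibril-associated collagens 11 were lower and 2 higher, of 17 basement membrane genes 16 were lower and 1 higher, and all 9 small proteoglycans with versican were lower. Col1a1, the main chain of collagen I, went from 3442, 1556 and 3943 CPM to 237, 290 and 211 CPM (−3.06 ± 0.33). Dcn, which encodes decorin, a proteoglycan that binds collagen fibrils, went from 23439, 33975 and 26027 CPM to 344, 365 and 306 CPM (−5.82 ± 0.16). Eln, the gene for elastin, went from 271, 148 and 213 CPM to 0, 3.07 and 0.931 CPM (−6.57 ± 0.44). The 2 members that rose were Col12a1, from 2.24, 4.02 and 3.60 CPM to 54.8, 44.9 and 43.3 CPM (4.40 ± 0.26), and Col8a1, of the short-chain collagen VIII (3.05 ± 0.45).

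Within the basement membrane, chains of one family moved by very different amounts. Col4a1, of the common collagen IV network, was at 1176, 1041 and 1368 CPM in fresh cells and 477, 513 and 503 CPM in culture (−0.72 ± 0.12), and its partner Col4a2 changed by −0.94 ± 0.14. The other 4 chains fell much further. Col4a3 went from 73.2, 81.8 and 78.5 CPM to 0, 0.767 and 0.931 CPM (−6.43 ± 0.40), Col4a4 and Col4a6 changed by −6.51 ± 0.38 and −6.33 ± 0.37, and Col4a5 by −3.89 ± 0.22. Collagen VI showed the same split: Col6a3 changed by −1.48 ± 0.13 and Col6a1 by −1.01 ± 0.15, whereas Col6a5 went from 1944, 1691 and 1340 CPM to 1.09, 1.53 and 1.86 CPM (−9.54 ± 0.56). Col6a6 was at 15009 counts over the fresh libraries and 3 over the cultures, 933-fold lower with a counting interval of 319 to 4522.5. Among laminin chains, Lama2 went from 383, 565 and 407 CPM to 3.80, 3.84 and 4.19 CPM (−6.29 ± 0.21), and Lama4, the chain typical of adipocytes, from 206, 221 and 183 CPM to 102, 109 and 105 CPM (−0.40 ± 0.12).

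Contractile genes rose while matrix genes fell. Of 11 tested, 9 were higher and none lower. Acta2, the smooth muscle actin of myofibroblasts, went from 3.12, 2.41 and 8.48 CPM to 394, 516 and 339 CPM (7.02 ± 0.79). Tpm1, a tropomyosin gene, went from 69.0, 77.7 and 89.8 CPM to 165, 184 and 151 CPM (1.62 ± 0.13). With libraries scaled by their totals alone, 7 of the 11 were higher. Of 6 tested markers of pericytes, contractile cells of small vessels, 2 were higher and 3 lower, and their part in these rises was not tested.

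Genes of several paracrine pathways were mostly lower. Of 8 tested Hedgehog genes 7 were lower, with the transcription factor Gli2 going from 58.3, 49.2 and 51.5 CPM to 1.09, 1.15 and 0.931 CPM (−5.08 ± 0.32). Of 10 genes of the insulin-like growth factor system 8 were lower and 1 higher, and Igf1, its ligand, went from 1614, 1351 and 1203 CPM to 245, 260 and 237 CPM (−1.95 ± 0.13). Of 8 Notch genes 5 were lower and none higher. The WNT pathway was mixed, with 10 of 19 lower and 4 higher (12 and 2 with libraries scaled by their totals alone), and so was the TGF-β, activin and BMP pathway, with 9 of 19 lower and 5 higher. The 4 WNT genes became 1 without cultured replicate 2, and 2 without fresh replicate 2 or 3 or cultured replicate 1 or 3. Fst, an activin trap, fell from 75.3, 94.1 and 102 CPM to 5.43, 2.30 and 2.79 CPM (−4.20 ± 0.27). Acvr1c, the receptor ALK7 of adipocytes, had 2 counts in fresh cells and stood at 55.4, 48.3 and 41.4 CPM in culture, a ratio of 850 with a counting interval of 233 to 7052.

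Receptors for oncostatin M (OSM), a cytokine of the IL-6 family that signals through gp130, fell by different amounts. Osmr, the subunit specific to OSM, was at 175, 262 and 251 CPM in fresh cells and 126, 105 and 128 CPM in culture (−0.40 ± 0.14, adjusted p = 0.013). Il6st, which encodes the shared subunit gp130, fell from 356, 275 and 380 CPM to 40.2, 49.5 and 44.2 CPM (−2.37 ± 0.15), and Lifr, the alternative partner, from 185, 237 and 302 CPM to 17.9, 23.4 and 24.7 CPM (−2.90 ± 0.20). Socs3, a feedback inhibitor induced through gp130, went from 189, 86.2 and 194 CPM to 9.77, 11.1 and 13.0 CPM (−3.24 ± 0.32). Cish, a related inhibitor, went the other way, from 1.44, 2.32 and 0.342 CPM to 47.8, 42.2 and 52.2 CPM (5.64 ± 0.34). Of the 18 genes of this family and its pathway, 12 were lower and 4 higher, or 2 higher with libraries scaled by their totals alone. The call of Osmr was lost without fresh replicate 2 or 3 or cultured replicate 2, with adjusted p of 0.0635 to 0.0663.

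Innate immune genes of the stroma fell in part. Of 12 complement genes 9 were lower and 3 higher. C3, the central component, went from 7799, 5474 and 6874 CPM to 83.1, 80.6 and 71.7 CPM (−5.88 ± 0.18), and Cfd, which encodes the adipocyte complement factor adipsin, from 0.719, 2.5 and 1.54 CPM to 124, 108 and 121 CPM (6.75 ± 0.53). Of 16 chemokines and scavenging receptors 11 were lower and none higher, although 2 were higher without fresh replicate 3. Ccl11, the eosinophil attractant eotaxin, had 355, 540 and 514 CPM in fresh cells and 1 count over the 3 cultures, 3072-fold lower with a counting interval of 551 to 1.2136e+05. The class I presentation list was split, with B2m, its invariant chain, rising from 408, 566 and 579 CPM to 1438, 1392 and 1956 CPM (2.16 ± 0.15). Of 22 type I interferon response genes, 2 were higher and 4 lower, or 1 and 6 with libraries scaled by their totals alone and 4 and 7 in a fit of the 6 VmSC4 libraries.

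Early response genes, which tissue dissociation is known to induce, were lower in culture. Of 24 tested, 20 were lower and 1 higher, with a median of −3.11. Egr1, an immediate early transcription factor, went from 384, 371 and 772 CPM to 7.6, 9.98 and 11.6 CPM (−5.16 ± 0.59), and Ier3 was the member that rose (2.30 ± 0.25). Klf4 and Socs3 are in this list, and the part of dissociation in their fall was not tested. Glucocorticoid-responsive genes were 10 of 16 lower and 5 higher. Fkbp5, a chaperone gene and standard readout of that hormone, fell from 140, 168 and 91.6 CPM to 6.52, 4.99 and 3.73 CPM (−4.18 ± 0.25), and Zbtb16 from 43.3, 53.3 and 27.4 CPM to 1.63, 1.53 and 4.66 CPM (−3.45 ± 0.36).

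Stress and growth genes gave a mixed picture. Hmox1, the haem oxygenase induced by oxidative stress, went from 55.5, 54.2 and 46.6 CPM to 1913, 1433 and 1783 CPM (5.58 ± 0.15), and 12 of 19 antioxidant genes were higher and 5 lower. Gpx3, the secreted glutathione peroxidase, fell from 6138, 5936 and 5558 CPM to 298, 292 and 249 CPM (−3.85 ± 0.12). Asns, an amino acid stress gene, rose from 15.4, 18.8 and 18.3 CPM to 214, 193 and 185 CPM (4.04 ± 0.15). Mki67, the proliferation marker, was at 0.879, 0.0894 and 2.05 CPM in fresh cells and 1.63, 1.53 and 2.79 CPM in culture, overlapping groups that were not called. Of 25 cell cycle genes 13 were higher and 2 lower, or 12 and 6 with libraries scaled by their totals alone. After thinning 8 were higher. Ccne1, which encodes cyclin E1, rose from 0.320, 1.16 and 0.599 CPM to 32.0, 47.2 and 44.2 CPM (6.42 ± 0.36). Of 5 inhibitors of the cell cycle 2 rose, Cdkn1a from 57.4, 67.8 and 58.0 CPM to 375, 429 and 413 CPM (3.27 ± 0.15) and Cdkn2c from 9.19, 8.58 and 12.1 CPM to 86.3, 83.6 and 69.9 CPM (3.54 ± 0.19), and 2 were not called, both of them lower with libraries scaled by their totals alone. Cdkn1c, which encodes the inhibitor p57, fell from 568 counts over the fresh libraries to 2 over the cultures, 52.9-fold lower with a counting interval of 14.6 to 438.

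Other groups held some of the steeper changes. Of 21 matrix proteases and their inhibitors 14 were lower and 5 higher (3 higher after thinning), with Adamts15, which cleaves versican, falling from 634, 473 and 404 CPM to 9.77, 12.7 and 10.2 CPM (−4.97 ± 0.21). Of 19 genes of retinoid metabolism 10 were higher and 4 lower, among the latter Aldh1a3, which makes retinoic acid (662, 505 and 606 CPM to 35.3, 40.3 and 35.9 CPM, −3.45 ± 0.15). Of 16 angiogenic and stromal growth factors 7 were higher and 5 lower (6 and 8 with libraries scaled by their totals alone). Angptl4, an inhibitor of lipoprotein lipase that PPARs induce, rose from 187, 174 and 164 CPM to 1330, 1220 and 1407 CPM (3.45 ± 0.14), and Angpt1, a ligand that stabilises vessels, fell from 28.4, 21.5 and 34.2 CPM to 0.543, 1.92 and 0 CPM (−4.40 ± 0.53). Of 20 HOX genes, which hold positional identity, 7 were lower, 3 higher and 10 not called, and without cultured replicate 2 only 4 were lower. Hoxb6 rose from 6.39, 3.67 and 5.22 CPM to 40.2, 37.2 and 38.7 CPM (3.45 ± 0.24).

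Markers of other cell types were low. The 11 macrophage markers summed to 11.1 to 26.0 CPM in fresh libraries and 10.2 to 21.7 CPM in cultures, with Adgre1, which encodes F4/80, at 0 counts in all 6. Neutrophil markers summed to at most 0.400 CPM and 3.26 CPM, and epithelial markers to at most 0.171 CPM and 0.543 CPM. Endothelial markers summed to 63.3 to 86.2 CPM and 28.8 to 38.7 CPM, mesothelial ones to 89.5 to 122 CPM, mostly Wt1, and 11.2 to 14.1 CPM, and pericyte ones to 24.9 to 49.1 CPM and 95 to 112 CPM, mostly Cspg4. In fresh replicate 2 the B cell gene Ighm was at 354 CPM, against 12.1 and 7.79 CPM in the other fresh libraries. The part of other cells in the results was not tested.

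Last, the VmSC4 response was set against that of VmSC5. The difference between the 2 responses was called for 379 genes (2.87%): 134 (1.01%) responded more positively in VmSC4 and 245 (1.85%) more negatively. These counts depended on single libraries, ranging from 54 to 208 and from 101 to 452 when 1 of the 12 libraries was left out, and DESeq2 gave 282 more positive. Some lists of matrix genes were above these shares and went one way. Of 17 basement membrane genes 6 differed, of 15 fibrillar and fibril-associated collagens 5, and of 16 elastic fibre genes 4, every one more positive in VmSC4. All 15 fell in VmSC5 culture, and in VmSC4 culture 14 fell by less and Col6a2 was not called. All 15 kept this direction whichever library was left out, but between 9 and 15 of them were still called, 9 without VmSC4 cultured replicate 2 or VmSC5 cultured replicate 3 and 11 without VmSC5 fresh replicate 2 or VmSC5 cultured replicate 1. Col4a1 changed by −0.72 ± 0.12 in VmSC4 and by −1.94 ± 0.12 in VmSC5, a difference of 1.22 ± 0.17 (adjusted p = 0.0001). Hspg2, the gene for perlecan, changed by −2.58 ± 0.15 and −3.89 ± 0.15, and Col6a2 by −0.19 ± 0.18 and −1.26 ± 0.18, a difference lost in 7 of the 12 fits that left out a library. Other matrix lists did not share this direction. Of 9 small proteoglycan genes 1 differed, more negative in VmSC4, with a median difference of −0.63. Of 21 matrix protease genes 2 were more positive and 1 more negative. The direction was not particular to matrix: of 22 DPP4+ progenitor genes 7 differed (31.8%), all more positive.

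**Figure D5:**
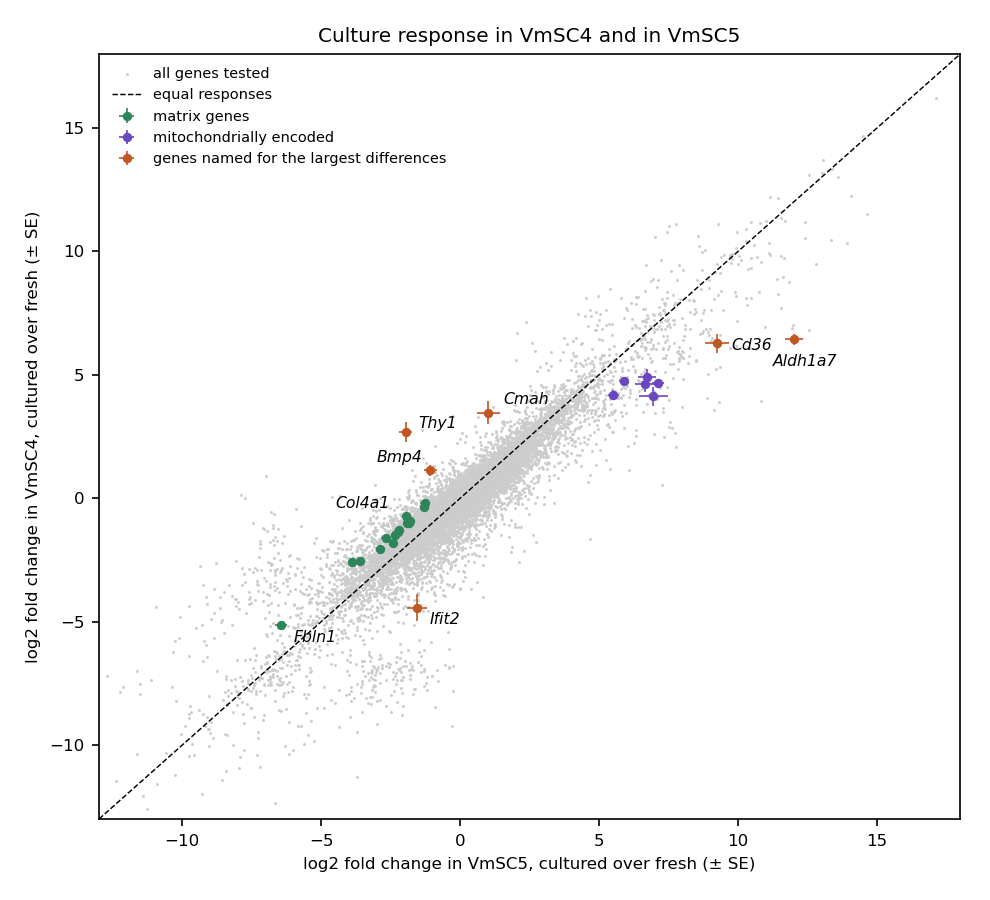
Log2 fold change (± SE) of cultured over fresh cells in VmSC5 (x) and VmSC4 (y); the dashed line marks equal responses and grey points are all genes tested. The 15 matrix genes (green) lie above the line, and the 6 mitochondrially encoded genes (purple), Cd36, Aldh1a7 and the interferon response gene Ifit2 below it; Thy1, Bmp4 and Cmah lie above.

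Genes of fatty acid uptake differed more often than all genes (33.3% against 2.87%), but in both directions. Of 15 tested, 2 were more positive and 3 more negative in VmSC4. Of 15 thermogenic genes 1 was more negative (6.67%). Cd36 rose by 6.27 ± 0.37 in VmSC4 and 9.23 ± 0.43 in VmSC5, and Aldh1a7, an aldehyde dehydrogenase gene, by 6.44 ± 0.22 in VmSC4, a difference of −5.56 ± 0.38 from VmSC5. Cidea, a droplet gene of brown fat named here after its value was seen, rose by 3.93 ± 0.28 and 10.82 ± 0.47, a difference of −6.90 ± 0.68 (adjusted p = 2.4e-05). Of 11 mitochondrially encoded genes 6 rose less in VmSC4, with mt-Nd6 at 4.66 ± 0.18 and 7.12 ± 0.22, and between 3 and 6 of these calls held when 1 library was left out. Of the nuclear subunits, 3 of 36 of complex I differed and none of complexes II to V. Thy1, a stromal surface marker at 1.04, 0.715 and 0.685 CPM in fresh and 5.43, 2.69 and 3.26 CPM in cultured VmSC4, rose by 2.68 ± 0.41 and changed by −1.96 ± 0.24 in VmSC5. Bmp4, a ligand that commits cells to the adipocyte lineage, changed by 1.13 ± 0.22 and −1.07 ± 0.24.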

How the data were processed

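RNA of freshly sorted and 8-day cultured VmSC4 and VmSC5 cells was sequenced from polyadenylated transcripts by an ultra-low-input protocol, per the labels' protocols. The authors deposited raw counts per gene in 1 table of 42 libraries. Reads were aligned with STAR 2.7.3a to mm10 and counted with featureCounts, per the submitters' processing notes. The annotation release, strand setting and handling of shared reads are not given in the sources used here.

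The 12 libraries of the 4 groups were fitted together in edgeR 4.0.16 (R 4.3.3, limma 3.58.1) with TMM scaling, a low-count filter with a minimum count of 10 and the robust quasi-likelihood F test, with Benjamini-Hochberg adjustment over 13221 genes. A standard error is the log2 fold change over the root of its F statistic. The script was tested on simulated counts. For 0 counts in a group, folds are lower bounds at 3 counts over the group, and for 1 to 3 counts ratios have exact counting intervals of 95%. Both cover counting error only. RPKM used the joined length of all GENCODE M21 exons of a gene. That length can exceed the expressed transcript, which makes RPKM too low. Alternatives were RLE scaling, library totals, DESeq2 1.42.0, no filter, thinning, no mitochondrial transcripts, a replicate block, 6 libraries and leaving out each library.

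The comparison and the gene lists were chosen with earlier results of these data known. Named genes were fixed markers, up to 4 members of each list with the largest changes at 20 CPM or more, members that went against their list, the largest changes over all genes, genes with 0 counts in fresh cells and the largest differences from VmSC5. The genes with printed promoters, Cidea, Col4a2, Col4a5, Col6a1, Col6a3, Cox7a2, Cox8a, Cpt1b, Fasn, Hspg2, Igf1, Lama4, Ldha, mt-Co1 and mt-Nd6 fall outside this rule and were chosen after their values were seen.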

Additional observations from a re-analysis of the deposited data

Results flagged for a closer look

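Responses to culture that differed between VmSC4 and VmSC5 are given here, each tested as the difference of the 2 responses in edgeR's quasi-likelihood fit. The response was more positive in VmSC4 for 134 genes and more negative for 245.

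Among matrix genes the difference (VmSC4 response minus VmSC5 response, log2) was 1.22 for Col4a1, 0.86 for Col4a2, 1.30 for Hspg2, 0.84 for Col6a1, 1.06 for Col6a2 and 0.86 for Col6a3. Every one of these 6 was lower in VmSC5 culture. Col4a2, Col6a1 and Col6a2 lost the call in 4, 6 and 7 of the 12 fits that left out a library. Adamts15, a matrix protease gene, went the other way, with a difference of −1.48.

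Among genes of fat and mitochondria the difference was −6.90 for Cidea, −2.96 for Cd36, −1.41 for Scd1, −2.02 for mt-Co1 and −2.47 for mt-Nd6. The call of mt-Co1 was lost in 9 of those 12 fits and that of Scd1 in 5. Lpl and Ppargc1b rose more in VmSC4, with differences of 0.59 and 1.89. Both were near the threshold (adjusted p of 0.042 and 0.046) and were lost in 8 and 9 of the 12 fits.

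Among other genes the difference was −5.56 for Aldh1a7, −0.96 for Agt, −0.67 for Gpx3, −2.88 for Ifit2 and 2.44 for Cmah. Ifit2 lost the call in 9 of the 12 fits, Cmah in 6 and Gpx3 in 3, and Cmah also after thinning (adjusted p = 0.15). Igf1 changed by −1.95 ± 0.13 in VmSC4 and by −0.12 ± 0.13 in VmSC5, a difference of −1.83. Thy1 (4.63) and Bmp4 (2.20) rose in VmSC4 culture and fell in VmSC5 culture.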

How the results depend on the processing

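The counts of genes higher and lower in cultured VmSC4 stayed within 1.5 times under every alternative run. RLE scaling gave 4320 higher and 4962 lower, DESeq2 4342 and 4854, no low-count filter 3975 and 5820, thinning to the smallest total 3762 and 4037, the 6 VmSC4 libraries alone 4018 and 5046, and library totals alone 3017 and 7037. Leaving out 1 library gave 3851 to 4117 higher and 4531 to 4978 lower. Of 137 genes named, 129 kept their direction and side of the threshold under all alternatives that tested them. F3, not called, turned to −0.47 with library totals alone, −0.09 without a low-count filter, −0.07 without fresh replicate 1 and −0.05 without cultured replicate 2, with a range of −0.07 to 0.19 when a library was left out. Col6a2, not called, turned to 0.04 without fresh replicate 3, and was called lower with library totals alone (−0.73), without a low-count filter (−0.36) and without fresh replicate 2 (−0.40). Ighm, not called (−2.23), turned to 1.38 without fresh replicate 2, the range being −2.78 to 1.38. The causes were not tested.

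The counts of genes whose response differed from VmSC5 were less stable. The more positive ones numbered 282 with DESeq2 and 54 to 208 when a library was left out: 54 without VmSC4 cultured replicate 2, 59, 69, 84 and 208 without VmSC5 cultured replicate 3, cultured replicate 1, fresh replicate 2 and fresh replicate 1. The more negative ones numbered 374 with library totals alone, 451 without a low-count filter and 101 to 452 when a library was left out, the highest without VmSC5 fresh replicate 1 and the lowest without VmSC4 cultured replicate 2. They numbered 135 and 160 without VmSC4 cultured replicate 1 and 3, and 102, 106 and 145 without VmSC5 cultured replicate 3, cultured replicate 1 and fresh replicate 2. Of the 15 matrix genes, 14 or 15 held in the fits that kept all libraries. Of the 6 mitochondrially encoded genes, 4 held without a low-count filter and 4 with the replicate block, among the latter not mt-Co1.

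Replicate numbers gave no sign of pairing: deviations of same-numbered fresh and cultured VmSC4 libraries correlated at 0.021, −0.010 and 0.049. With 3 libraries per group these values cannot exclude a pairing, and the labels do not say if there was one. With the replicate number as a block, 4189 genes were higher and 5062 lower. The cultures' depth limits low genes: a floor of 3 counts was 1.15 to 1.63 CPM per cultured library and 0.240 to 0.268 CPM per fresh one.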
